A study of Mus musculus with 6 samples.

Results

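Aminoacyl-tRNA synthetases join each amino acid to its transfer RNA, and the charged transfer RNA then carries that amino acid to the ribosome. Cytoplasmic and mitochondrial protein synthesis use separate enzymes for most amino acids, and the mitochondrial enzymes, whose symbols mostly end in 2, are encoded in the nucleus. Several cytoplasmic synthetases sit in the multisynthetase complex, which the non-enzymatic proteins AIMP1, AIMP2 and EEF1E1 (also called AIMP3) hold together. Maturing red cell precursors make large amounts of globin and depend on this supply. Transcription of many cytoplasmic synthetase genes is known to respond to amino acid shortage through the factor ATF4.

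The genes were listed by name: 20 cytoplasmic synthetases or their subunits, 16 mitochondrial synthetases and the scaffold proteins Aimp1 and Aimp2, 38 in all. Of these, 37 were measured among 18193 genes (19 cytoplasmic, 16 mitochondrial and 2 scaffold genes). Dars, for aspartate, was not analysed here, and Mars was measured under its current symbol Mars1. Where a gene had several probe sets, the brightest on average over the 6 arrays was read. The list follows from the enzymes' names, though it was chosen with earlier results of these data known. Genotype differences did not enter the choice of a probe set.

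The samples were Ter119-positive cells of mouse fetal liver at embryonic day 14.5, a gate that marks maturing red cell precursors. There were 3 wild type pools and 3 STAT5 knockout pools, each combining 3 to 5 embryos of the same genotype, with 1 Affymetrix mouse genome array to a pool. STAT5A and STAT5B are transcription factors activated downstream of the erythropoietin receptor. The sources used here do not say which STAT5 alleles the knockout embryos carried. No other treatment is named for either genotype. Signals are the deposited linear intensities, and differences are knockout minus wild type means of log2 signal.

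Stat5a read 8.54 ± 0.15 on the log2 scale in wild type and 7.10 ± 0.17 in knockout pools (SD, n = 3 each), and all 4 probe sets of Stat5a and Stat5b were lower on every knockout array than on every wild type array. The 7 measured erythroid markers were all above the control level, which is the 95th percentile of 27 probe sets for bacterial transcripts (log2 7.34). So were all 14 measured hepatocyte markers, whose median difference was -0.69. The hepatocyte markers' summed signal was 211988, 283866 and 167051 in wild type replicates 1, 2 and 3 and 143448 to 158344 in knockout pools. Summed erythroid markers spanned 200587 to 212480 in wild type and 162776 to 210470 in knockout pools, while markers of immature progenitors spanned 24880 to 26471 and 32661 to 34872. By gene, 6 erythroid markers were below 0 and 1 above, with a median of -0.16. Of the progenitor markers 5 were above 0 and 3 below, with a median of 0.53. Genes that tissue handling induces summed to 12509 to 16648 in wild type and 19578 to 30528 in knockout pools. Endothelial markers had a median difference of -0.60, with 9 of 10 below 0, 4 of 10 above the control level in both genotypes, and Clec4g (-2.18) and Lyve1 (-2.56) lower without overlap. The part of these shifts in the synthetase values below was not tested. In such pooled cells, fewer cells of a type and less RNA per cell cannot be told apart.

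Asparaginyl-tRNA synthetase, Nars, differed most among all 37 members. Its signals were 10144, 9009 and 9633 on the wild type arrays and 5033, 5364 and 4655 on the knockout arrays. Every knockout pool was below every wild type pool, and each genotype's pools lay close together. On the log2 scale this was 13.23 ± 0.09 against 12.29 ± 0.10 (SD, n = 3 each), a difference of -0.94 (SE 0.17, 95% interval -1.35 to -0.52), or 1.91-fold lower in the knockout. In limma without a mean-variance trend the adjusted p over all genes was 0.284, and in limma with the trend it was 0.0148. Bright genes vary less than dim ones on these arrays, and the trend lets the expected spread follow brightness. Nars was the only member that either fit called: with the trend 80 of 18193 genes (0.44%) were called, of which 36 (0.198%) were lower in the knockout. Without the trend 8 genes (0.044%) were called. At an unadjusted p under 0.05 without the trend, 1 member passed, Nars, beside 8.9% of all genes.

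The other Nars probe set gave the same direction. Its signals were 7373, 5557 and 8239 in wild type and 2685, 3090 and 3347 in knockout pools, again without overlap. The difference was -1.20 (SE 0.24), with means of 12.77 ± 0.29 and 11.56 ± 0.16 (SD, n = 3 each). Tested over all probe sets without the trend, the pair had adjusted p-values of 0.403 and 0.391 in limma. The sums of hepatocyte, progenitor and handling markers separated the genotypes too, and their part in the Nars difference was not tested. Under quantile normalization the Nars difference was -0.94, under median centring of each array -0.82, and over the fits that leave out 1 array -0.985 to -0.883. The call with the trend was lost without wild type replicate 1 (adjusted p = 0.090), knockout replicate 1 (0.097) or knockout replicate 3 (0.095) in limma.

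**Figure D1:**
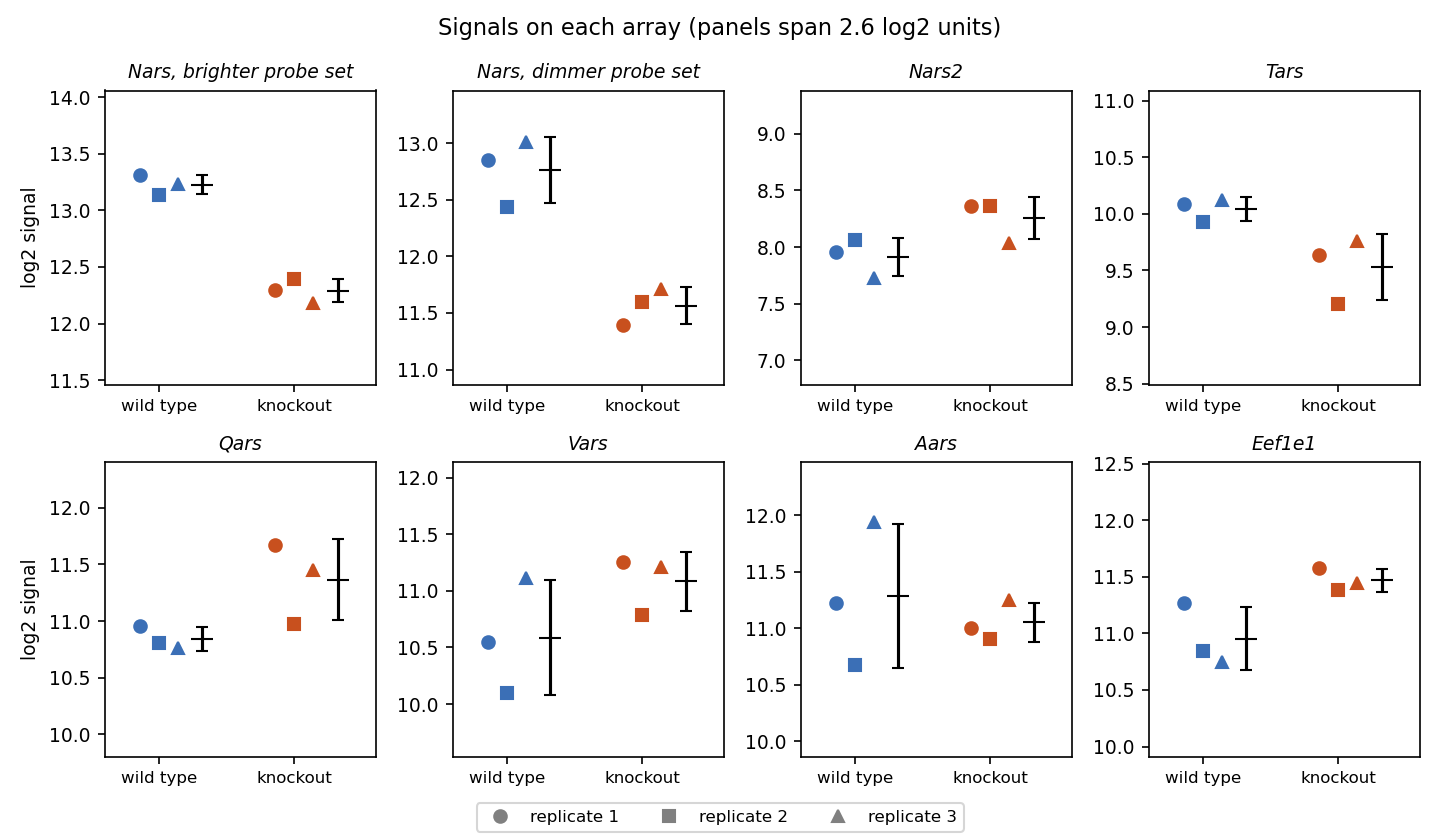
Log2 signal on each array for both Nars probe sets and for 6 other genes, with 1 point to a pool, marker shape giving the replicate number, and mean ± SD of each genotype (n = 3) beside the points. The genotypes do not overlap for Nars, Tars, Qars and Eef1e1, the gap being widest for Nars, and the pools of Nars2, Vars and Aars overlap.

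Threonyl-tRNA synthetase, Tars, was the other member below wild type on every knockout array. Its signals were 1088, 971 and 1116 in wild type and 797, 590 and 867 in knockout pools. The groups came close to each other at the lowest wild type and the highest knockout pool. Means were 10.05 ± 0.11 and 9.53 ± 0.29 (SD, n = 3 each), a difference of -0.51 (SE 0.21, 95% interval -1.04 to 0.01), which did not pass the test (adjusted p = 0.563 in limma, 0.343 with the trend). After median centring the difference was -0.40 and the groups overlapped.

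Glutaminyl-tRNA synthetase, Qars, was the one member above wild type on every knockout array. Its signals were 1989, 1786 and 1735 in wild type and 3264, 2010 and 2806 in knockout pools, so that knockout replicate 2 lay just above the wild type range. Means were 10.84 ± 0.10 and 11.37 ± 0.36 (SD, n = 3 each), a difference of 0.53 (SE 0.24) with an adjusted p of 0.576 in limma and 0.314 with the trend. Of its other probe sets, one differed by 0.57 without overlap, one by 0.47 with overlap, and one below the control level by 0.08. Under quantile normalization the Qars groups overlapped, at a difference of 0.47.

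On the probe sets read, these 3 genes were all the members whose genotypes did not overlap, which is 8.11% of the 37 measured. Over all genes 16.9% did not overlap, 9.85% being lower and 7.02% higher in the knockout. The members as a whole thus separated the genotypes no more often than other genes of the array. Their median difference was 0.054, with 14 below 0 and 23 above, while the median of all genes was -0.085 with 10570 of 18193 below 0. The median of all genes moved with the scaling, to -0.036 after quantile normalization and 0.028 after median centring. For 28 of the 37 members the 95% interval of the difference lay within 2-fold in either direction, and the same held for 8471 of 18193 genes. Above the control level in both genotypes were 34 of the members and 11174 of all genes. The part of brightness in the interval counts was not tested.

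**Figure D2:**
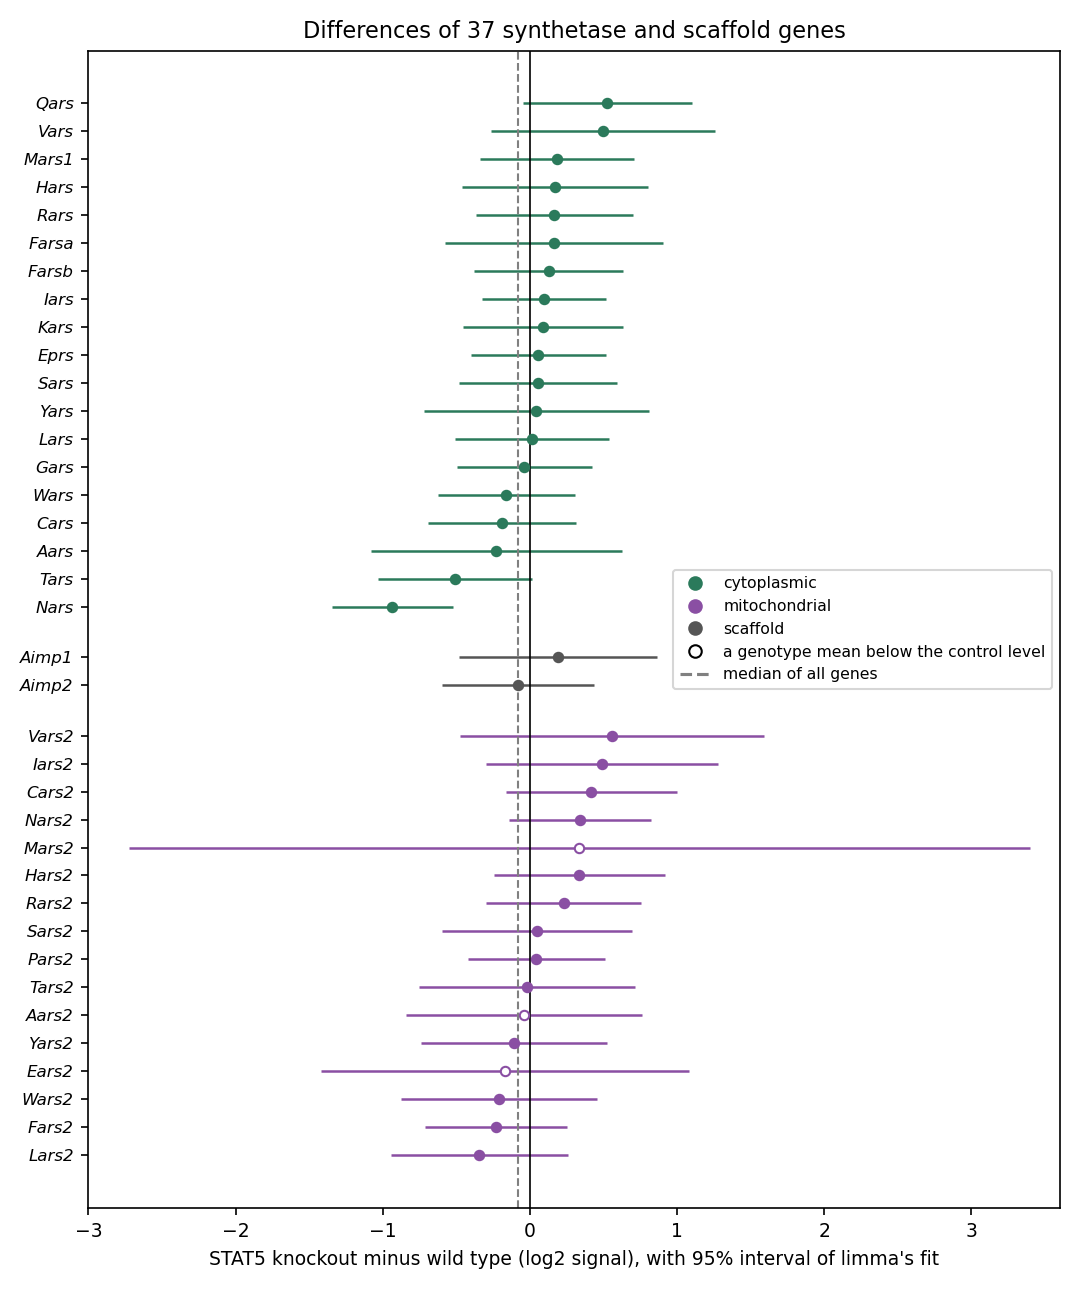
Knockout minus wild type difference in log2 signal for the 37 measured genes with 95% intervals from limma, grouped into cytoplasmic, mitochondrial and scaffold genes; open symbols mark genes below the control level in at least 1 genotype, and the dashed line is the median of all genes (-0.085). Nars at -0.94 is the lowest.

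Among the 19 cytoplasmic enzymes the median difference was 0.057, with 13 above 0 and 6 below. All 19 were above the control level in both genotypes. Valyl-tRNA synthetase, Vars, had signals of 1501, 1095 and 2211 in wild type and 2448, 1765 and 2373 in knockout pools. These overlapped, and the difference of 0.50 (SE 0.31) was 0.25 without wild type replicate 2. Alanyl-tRNA synthetase, Aars, had signals of 2396, 1635 and 3935 in wild type and 2052, 1919 and 2429 in knockout pools. The wild type pools of Aars spread so widely (SD 0.64) that its difference of -0.23 (SE 0.35) became 0.10 without wild type replicate 3.

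Most other cytoplasmic enzymes differed little. Cysteinyl-tRNA synthetase Cars (-0.19) and tryptophanyl-tRNA synthetase Wars (-0.16) were lower on average, and all 4 Wars probe sets had differences below 0. Methionyl-tRNA synthetase Mars1 (0.18), histidyl-tRNA synthetase Hars (0.17), arginyl-tRNA synthetase Rars (0.17) and the catalytic subunit of phenylalanyl-tRNA synthetase Farsa (0.16) were higher on average. Farsa signals were 715.4, 435.1 and 843.8 in wild type and 852.6, 693.1 and 625.6 in knockout pools, and wild type replicate 2 was the lowest of them. The other subunit, Farsb, differed by 0.13, isoleucyl-tRNA synthetase Iars by 0.10 and lysyl-tRNA synthetase Kars by 0.09. The double enzyme for glutamate and proline, Eprs, differed by 0.06, seryl-tRNA synthetase Sars by 0.05, tyrosyl-tRNA synthetase Yars by 0.04, leucyl-tRNA synthetase Lars by 0.01 and glycyl-tRNA synthetase Gars by -0.04. None of these passed the test, and in each of them the genotypes overlapped. Gars was among the most even of them, with knockout signals of 2696, 2715 and 2656 inside the wild type range of 2319 to 3063.

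The enzymes of the multisynthetase complex were described apart from the cytoplasmic enzymes outside it. All 7 measured synthetases of the complex had differences above 0, from 0.01 (Lars) to 0.53 (Qars), with a median of 0.096. Without wild type replicate 2, where 5 of these 7 were at their lowest of all arrays, 4 were above 0 and Eprs, Kars and Lars below, and after quantile normalization 5 were above 0. The scaffold protein Aimp1 had signals of 1642, 988.5 and 1057 in wild type and 1697, 1233 and 1219 in knockout pools, a difference of 0.19 (SE 0.28). Aimp2 had signals of 2141, 1803 and 2177 against 1896, 2316 and 1621, a difference of -0.08 (SE 0.21). Both overlapped between genotypes. Eef1e1, the remaining scaffold protein and not a listed member, had signals of 2464, 1842 and 1719 in wild type and 3064, 2674 and 2788 in knockout pools. Its groups did not overlap, at a difference of 0.52 (SE 0.21) and an adjusted p of 0.560 in limma. The 12 cytoplasmic enzymes outside the complex were split evenly, 6 below and 6 above 0, with a median of 0.003. Without wild type replicate 2 only 1 of them, Vars, was above 0. By the fold of the catalytic domain, which divides synthetases into classes I and II, the medians were 0.131 for 18 class I and 0.047 for 16 class II genes.

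Synthetases that amino acid shortage is known to induce through ATF4 were read as a separate list. Of these 11 genes, 6 were below 0 and 5 above, with a median of -0.038, and both Nars and Tars belong to it. The 8 other cytoplasmic enzymes were all above 0, with a median of 0.165, but 3 of 8 were above 0 without wild type replicate 2, at a median of -0.044. In that comparison 9 of the 11 ATF4-responsive genes were below 0. No test was made between these lists. The count above 0 among all 19 enzymes was 13 as deposited, 14 after median centring, 11 after quantile normalization and 5 without wild type replicate 2.

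ATF4 and its partners bind the sequence TGATGNAA, the core of the amino acid response element. Promoter windows of 250 bases before the annotated start (RefSeq, build GRCm38.p6) were read for the 28 members that had one, and both strands were searched. Nars had no window and was not searched, nor were Cars, Hars, Lars, Rars, Vars, Wars, Hars2 and Pars2. The motif was found in 3 of 12 cytoplasmic members, Aars, Gars and Tars, in 0 of 14 mitochondrial and 0 of 2 scaffold members, and in 3.91% of all 27025 genes with a window. The 3 stretches are shown because they hold the only matches among the 28 members searched. They come from genes whose differences were -0.23, -0.04 and -0.51. Capitals mark the match, here on the strand opposite to the motif as spelled. The Aars stretch is chr8:111033694-111033773 on the plus strand, the Gars stretch chr6:55037921-55038000 on the plus strand and the Tars stretch chr15:11399659-11399738 on the minus strand.
Aars: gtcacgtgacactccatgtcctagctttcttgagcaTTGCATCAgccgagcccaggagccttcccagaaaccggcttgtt
Gars: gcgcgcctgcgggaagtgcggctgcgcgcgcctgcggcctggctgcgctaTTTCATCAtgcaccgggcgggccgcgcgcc
Tars: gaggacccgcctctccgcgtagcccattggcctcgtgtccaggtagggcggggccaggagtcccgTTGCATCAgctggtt
The Aars match lies 112 to 105 bases before the start, the Gars match 30 to 23 bases before it and the Tars match 15 to 8 bases before it. The STAT motif TTCNNNGAA was found in the windows of Aars, Kars and Nars2 and in 8.13% of all genes with a window. The E-box CACGTG, which MYC and related factors bind, was found in Aars, Farsb and Iars and in 6.86% of all genes. Myc itself differed by 1.10 (SE 0.23) without overlap, and its adjusted p was 0.346 in limma (0.061 with the trend). Only the Aars window held more than 1 of these motifs, with no overlap between them. A match describes these letters and does not show binding.

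Other genes of the amino acid response did not move one way. Of 27 measured, 12 were below 0 and 15 above, and none was called by either fit. Without overlap 3 were lower and 5 higher, beside 9.85% lower and 7.02% higher over all genes. Mthfd2, a mitochondrial folate enzyme, was lower without overlap, at log2 signals of 12.01, 11.83 and 12.50 against 10.91, 11.18 and 11.47. Slc7a5, a transporter of large neutral amino acids, was also lower without overlap (-0.59, SE 0.18), and Aldh18a1, of proline synthesis, was higher without overlap (0.73, SE 0.21). Asparagine synthetase, Asns, which makes the amino acid that Nars uses, read 13.40, 12.88 and 13.53 in wild type and 13.58, 13.81 and 13.49 in knockout pools. Those ranges overlapped, at a difference of 0.36 (SE 0.24). Atf4 itself differed by -0.16 (SE 0.21), Ddit3 by 0.56, Trib3 by 0.31 and Chac1 by -0.22. Among the kinases and subunits of the eIF2 pathway, the heme-regulated kinase Eif2ak1 differed by -0.23 (SE 0.18), the subunit Eif2s2 by -0.23 and the phosphatase regulator Ppp1r15b by 0.32, all with overlap.

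The 16 mitochondrial enzymes had a median difference of 0.047, with 9 above 0 and 7 below. On the probe sets read, no member separated the genotypes. Of these, 13 were above the control level in both genotypes. Methionyl (Mars2) and alanyl (Aars2) enzymes were below it in both, and glutamyl-tRNA synthetase Ears2 was below it in the knockout, so that no fold is given for them. Mars2 signals scattered from 9.96 to 71.8 in wild type and from 6.10 to 122 in knockout pools, all below that level. Spread between pools was larger than for the cytoplasmic enzymes in the knockout, with median SDs of 0.325 and 0.134, and similar in wild type, at 0.286 and 0.276.

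Valyl-tRNA synthetase of mitochondria, Vars2, had the highest mean difference, 0.56 (SE 0.42). Its signals were 97.7, 273.8 and 245.2 in wild type and 312.3, 267.2 and 251.2 in knockout pools, and 1 dim wild type pool set the difference, which was 0.09 without wild type replicate 1. Isoleucyl Iars2 had signals of 440.8, 316.8 and 545.8 in wild type and 681.3, 418.4 and 739.9 in knockout pools (0.49, SE 0.32). The lowest knockout pool lay inside the wild type range. Cysteinyl Cars2 read 302.7, 437.2 and 398.2 against 436.6, 466.3 and 614.9 (0.42, SE 0.24), and histidyl Hars2 read 348.9, 459.7 and 523.6 against 479.3, 536.9 and 656.6 (0.34, SE 0.24). In both, the highest wild type pool lay above the lowest knockout pool and below the others. Asparaginyl-tRNA synthetase of mitochondria, Nars2, had signals of 248, 267 and 212 in wild type and 329, 328 and 263 in knockout pools. These overlapped by a small margin, and the difference was 0.34 (SE 0.20). Arginyl Rars2 differed by 0.23, seryl Sars2 by 0.05 and prolyl Pars2 by 0.04.

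On the lower side, leucyl-tRNA synthetase Lars2 had signals of 739, 629 and 832 in wild type and 716, 592 and 446 in knockout pools. Its pools overlapped, and the difference was -0.34 (SE 0.24). Phenylalanyl Fars2 had signals of 1386, 1300 and 1068 in wild type and 1201, 1027 and 965.9 in knockout pools, with overlap and a difference of -0.23. Smaller differences were those of tryptophanyl Wars2 (-0.21), tyrosyl Yars2 (-0.11) and threonyl Tars2 (-0.02). None of the mitochondrial enzymes passed the test in either fit. Where several probe sets of a gene were above the control level, they disagreed in sign for 6 of 8 mitochondrial genes (Cars2, Ears2, Iars2, Lars2, Tars2 and Yars2) and for 0 of 9 cytoplasmic genes. The signs of those mitochondrial differences therefore depended on the probe set that was read. A dimmer Tars2 probe set, below the control level in wild type, was higher without overlap (0.82, SE 0.32). A dimmer Fars2 probe set was lower without overlap (-0.39, SE 0.19). Neither passed the test over all probe sets without the trend (adjusted p = 0.620 and 0.660 in limma).

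For 17 pairs of a cytoplasmic enzyme or subunit and the mitochondrial enzyme for the same amino acid, the differences were set against each other within each array. The pair shares an array, so that the scaling of whole arrays drops out. Eprs entered with both Ears2 and Pars2, and Fars2 with both Farsa and Farsb, so these pairs share a gene. In 14 of the 17 pairs both enzymes were above the control level in both genotypes. In 10 pairs both differences had the same sign, in 7 they were opposite, and in 9 the cytoplasmic enzyme had the lower difference. The asparagine pair stood farthest apart. The log2 signal of Nars minus that of Nars2 was 5.35, 5.08 and 5.51 in wild type and 3.94, 4.03 and 4.15 in knockout pools, without overlap. These values are a contrast of probe sets and not a ratio of transcripts. The change of -1.28 had an exact two-sided permutation p of 0.1, the smallest that 3 against 3 arrays allow, and 0.85 after adjustment over the 17 pairs.

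The leucine pair was the other one without overlap, at 0.80, 0.74 and 0.83 in wild type and 0.93, 0.89 and 1.63 in knockout pools. That change was 0.36 (exact permutation p = 0.1), and knockout replicate 3 lay far above the rest. The cysteine pair changed by -0.61 and the threonine pair by -0.49, both with overlap. The valine pair changed by -0.06, since Vars and Vars2 were both higher on average, and the serine and proline pairs by 0.00 and 0.01. The medians of the classes differed by 0.011.

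**Figure D3:**
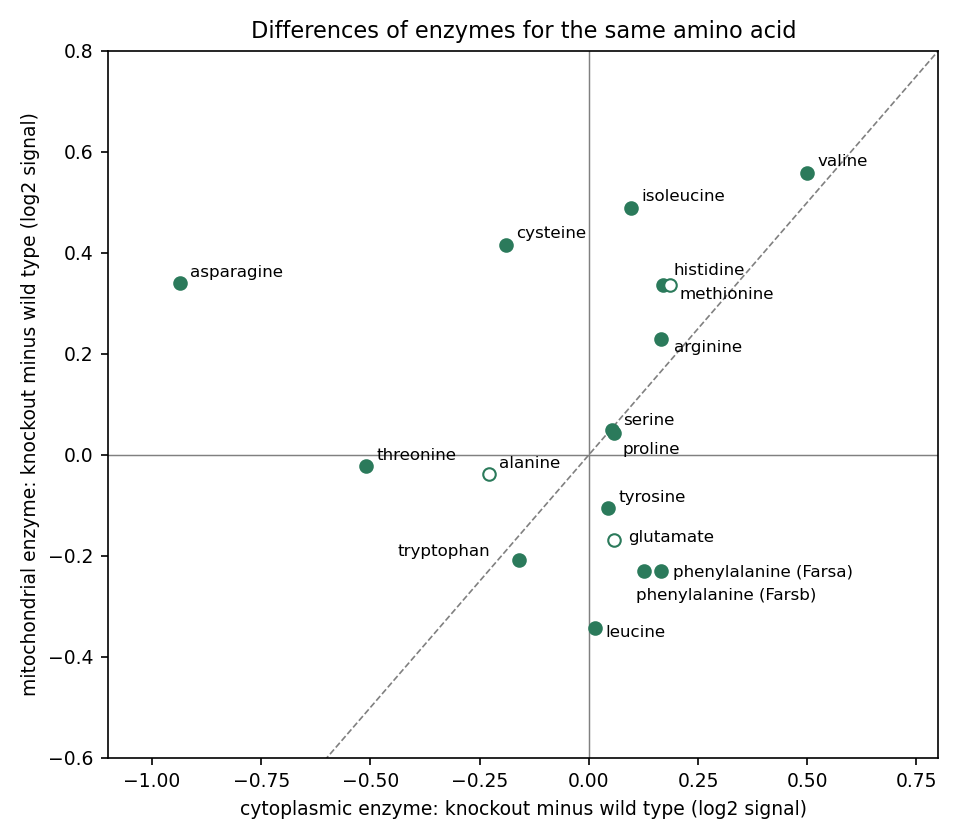
Differences (knockout minus wild type, log2 signal) of the cytoplasmic enzyme on the horizontal axis and the mitochondrial enzyme on the vertical axis for each amino acid, with equal differences on the dashed line and open symbols where 1 of the enzymes is below the control level in a genotype. Asparagine lies farthest from the line, at -0.94 and 0.34.

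The cytoplasmic enzymes also varied together between pools of the same genotype. In wild type replicate 2, 12 of the 19 were at their lowest of all 6 arrays, and 15 were at the lowest of the wild type arrays. Their median deviation from each gene's mean over the arrays was -0.301 there, 0.079 and 0.220 in the other wild type pools and -0.052 to 0.080 in the knockout pools. For the mitochondrial enzymes the median deviation on that array was -0.036, with 5 of 16 at the lowest of the wild type arrays, and for all genes it was 0.133. The gap between the classes narrowed with quantile normalization. Median centring shifts whole arrays and left the gap as it was, though each median moved. After quantile normalization the medians on that array were -0.216 for cytoplasmic enzymes, -0.182 for mitochondrial enzymes and 0.040 for all genes. After median centring they were -0.508, -0.243 and -0.074. The enzymes at the lowest of the wild type arrays then numbered 15 of 19 cytoplasmic and 6 of 16 mitochondrial ones after quantile normalization, and 18 and 7 after median centring.

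Wild type replicate 2 also had the highest hepatocyte marker sum, 283866, and the highest median signal, 216 against 176 to 194 on the other arrays. The part of either in the low cytoplasmic values was not tested. Without that array the median difference of the cytoplasmic enzymes was -0.084, with 5 above 0 and 14 below, so that the direction of their median rested on 1 wild type pool. Members without overlap then numbered 11 of 37 (29.7%), against 25.9% of all genes in the same smaller comparison.

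**Figure D4:**
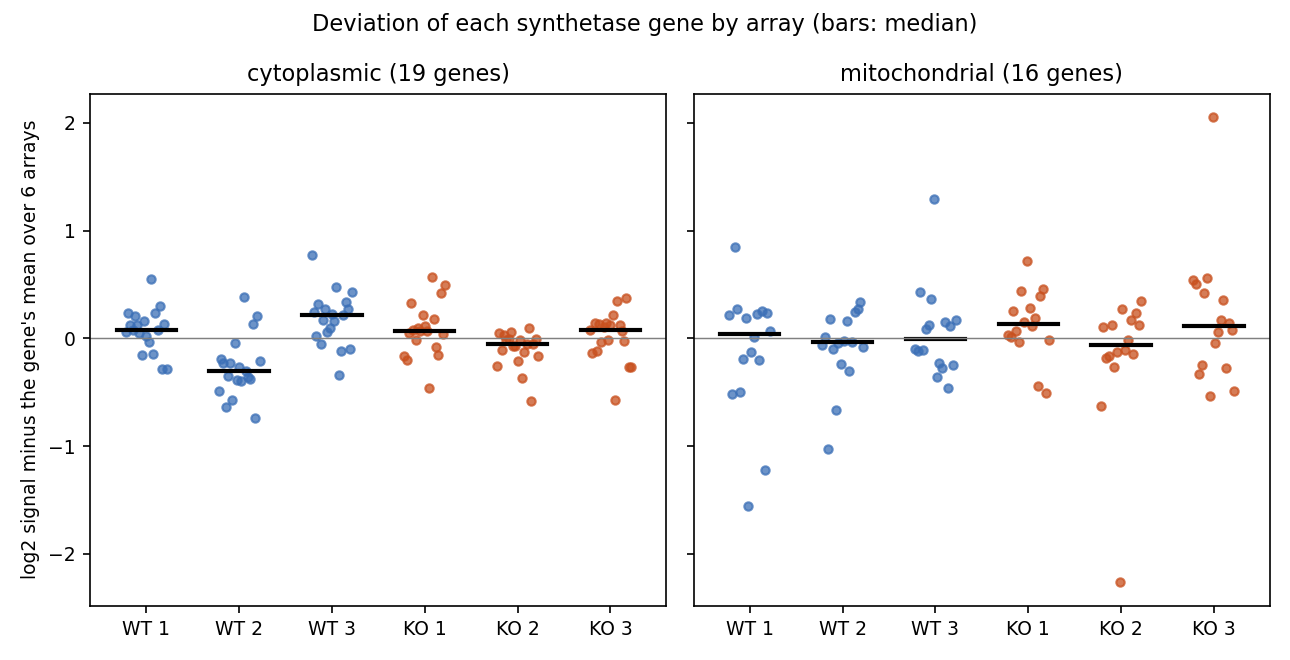
Deviation of each gene's log2 signal from its mean over the 6 arrays, with 1 point to a gene and a bar at the median, for the 19 cytoplasmic (left) and 16 mitochondrial enzymes (right) on the wild type (WT) and knockout (KO) arrays. On the deposited scale shown, the median of wild type replicate 2 is -0.301 for the cytoplasmic and -0.036 for the mitochondrial enzymes.

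Neighbouring steps of translation were read from further lists, and none of their genes was called by either fit. Of 6 cytoplasmic elongation genes 2 were lower and 2 higher without overlap, beside 9.85% lower and 7.02% higher over all genes. Eef1d was lower (-0.57, SE 0.19), while Eef1b2 (0.56, SE 0.23) and Eef2 (0.47, SE 0.19) were higher. EEF1D and EEF1B2 are subunits of the exchange factor that recharges eEF1A, the protein that brings charged transfer RNA to the ribosome. Mitochondria make glutaminyl-tRNA with an amidotransferase and not with a synthetase of their own. Gatc, a subunit of that enzyme, was lower without overlap (-0.23, SE 0.17). Mtfmt, which formylates the mitochondrial initiator methionyl-tRNA, read 7.22, 6.77 and 7.08 on the log2 scale in wild type, below the control level, and 7.53, 7.36 and 8.11 in knockout pools. Of 8 mitochondrial translation factors none separated the genotypes. Tufm, the mitochondrial elongation factor Tu, differed by 0.46 (SE 0.28), the ribosome recycling factor Mrrf by -0.36 and the exchange factor Tsfm by 0.15.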

How the data were processed

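RNA from 6 pools was hybridised 1 pool to an array, and the titles gave each pool's genotype and replicate number. The deposited table holds an intensity on a linear scale per probe set and array. RMA and Partek are listed in the submitters' processing notes without versions. Each array has a trimmed mean of 500.0 with 2% left out at each end. The sources used here do not describe that scaling. Analyses ran on log2 of the deposited values, and no pseudocount was added.

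Gene symbols came from GEO's annotation of the platform: of 45037 other than controls, 34945 had 1 symbol, 932 several and 9160 none. Only those with 1 symbol entered the gene fits. The test was limma 3.58.1 (R 4.3.3) with lmFit and eBayes over 18193 genes, without a mean-variance trend, and with the trend as the first alternative, adjusting p-values by Benjamini-Hochberg and calling those under 0.05. Pairs were tested with SciPy 1.17.1. Code was tested on simulated data. In these, with 3 against 3 arrays, limma without the trend recovered 40% of log2 differences of 2 and 0% of those of 1. With the trend it recovered 88% and 55%, the simulated spread following brightness. A gene that did not pass can thus still differ. With 3 arrays a group, their number limits the precision.

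Members and lists were chosen with earlier results of these data known. Per-array values are given for members without overlap, for those with the largest differences above the control level, up to at least 12, and for the brightest and dimmest member of each class. From the pathway lists up to 3 genes with the smallest unadjusted p are named, beside Myc, Stat5a, Stat5b, Atf4, Asns, Ddit3, Trib3, Chac1 and Eef1e1. Promoter windows are RefSeq's. Same-numbered pools of the genotypes correlated at 0.023, 0.041 and 0.037 in their deviations from the group means, so the numbers were not taken to pair them. Alternatives tried were the trend, the ANOVA of the design text, quantile normalization, median centring, a filter that drops the dimmest 50% of probe sets, the replicate block, each array left out, adding 32 before log2, the mean of a gene's probe sets, and leaving out probe sets ending in _x_at, _s_at or _a_at.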

Additional observations from a re-analysis of the deposited data

How the results depend on the processing

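The number of genes called (8 without the trend) was 80 with the trend, 4 after adjustment by the methods' t-test, 15 with quantile normalization, 3 after median centring, 20 without the dimmest 50% of probe sets, 3 without probe sets ending in _x_at, _s_at or _a_at, and 0 each time 1 array was left out, where limma gave 1272 to 2074 genes at an unadjusted p under 0.05. With the replicate number as a block 0 genes were called in limma without the trend (1565 at an unadjusted p under 0.05) and 75 with it, and Nars had an adjusted p of 0.038 with the trend and the block. Over the fits with the trend that left out 1 array, an alternative chosen after seeing the data, the adjusted p of Nars in limma was 0.035 to 0.097.

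Members without overlap (3, or 8.11%, beside 16.9% of all genes) numbered 5 (13.5%) after quantile normalization and after median centring. The shares of all genes were then 16.8% and 15.7%. They also numbered 5 with the mean of a gene's probe sets, for which no share of all genes is given. When 1 array was left out they numbered 5 to 11 (13.5% to 29.7%), beside 25.3% to 34.1% of all genes. Fewer arrays make separation easier. The median of the cytoplasmic enzymes was 0.170 after median centring, 0.027 after quantile normalization and -0.084 to 0.146 with 1 array left out. The median of the mitochondrial enzymes was 0.159 after median centring, 0.229 without probe sets ending in _x_at, _s_at or _a_at, and 0.031 to 0.187 with 1 array left out. The difference between the medians was -0.181 without those probe sets and -0.198 to 0.075 with 1 array left out. Among members with values per array, signs turned for Nars2 (-0.15 with the mean of probe sets, 1 of which is below the control level), Hars2 (-0.18 without the named probe sets), Aars (-0.53 to 0.10 with 1 array left out), Farsa (-0.11 to 0.36), Mars2 (-0.36 to 1.55) and Aimp2 (-0.214 to 0.0436, and 0.0331 after median centring). Over all 37 members, 3 to 9 signs turned with 1 array left out, most without wild type replicate 2, 4 after quantile normalization and 5 after median centring. The cause was not tested. The differences of Nars, Tars, Qars and Vars kept their sign in every alternative run, those of Nars from -1.07 to -0.82. So did those of Vars2 (0.09 to 0.83), Iars2, Cars2, Lars2, Fars2 and Aimp1. Fars2 had no value without the named probe sets. The trend, the t-test, the filter and the block left these differences unchanged, so they could not turn a sign. Neither could the choice of probe sets for Tars, Vars and Aimp1, which had no other probe set. Without the named probe sets Qars differed by 0.08, read from a probe set below the control level. Brightness limits Aars2 and Mars2, below the control level in both genotypes, and Ears2, below it in the knockout.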
